A study of Mus musculus with 12 samples.

Results

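CBP and p300 are a pair of closely related histone acetyltransferases, the products of Crebbp and Ep300. The report covers them with 7 further acetyltransferase genes: Kat2a (GCN5), Kat2b (PCAF), Kat5 (TIP60), Ncoa1, Ncoa2, Ncoa3 and Hat1. The genes were chosen by name, as listed acetyltransferases with a row in both count tables. No measured value entered this rule, but earlier results of these data were known when the genes were chosen. All 9 were found among the 44345 gene names of the series, and all 9 passed the filter on low counts in both kinds of tissue preparation.

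Histone acetyltransferases move acetyl groups from acetyl-CoA to lysines of histones, which loosens chromatin and gives bromodomain proteins a surface to bind. CBP and p300 are recruited by CREB and many other activity-dependent transcription factors, and the p160 coactivators Ncoa1, Ncoa2 and Ncoa3 link nuclear receptors to them. In sensory neurons, histone acetylation by these enzymes has been linked to the ability to regrow an axon after injury.

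The tissue was dorsal root ganglia (DRG), the ganglia that hold sensory neuron cell bodies, from the L4 to L6 sciatic levels of C57BL/6 mice aged 5 to 8 weeks. The labels name no genetic change, and for 10 days the mice were kept in environmental enrichment (EE) or in standard housing (SH). Enrichment means a cage with more objects and activity than the standard one. Whole DRG were pooled from 2 mice per library. Large-diameter neurons of at least 30 µm were laser-captured from stained sections, with 3 mice per library. Each of the 4 groups had 3 libraries. The question for these genes was whether their mRNA differed between EE and SH, in the ganglion as a whole and in its large neurons. Separate animals for each library are not stated, so a p-value here reflects only library-to-library spread, part of which may be technical.

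Whole-DRG libraries had 11343579 to 17036481 reads in genes, and captured libraries had 19296230 to 29434351. Captured libraries held less myelin than whole DRG: 14 Schwann cell markers summed to 1086 to 1539 CPM (read counts scaled to the total of reads in genes) against 6652 to 9880. The 18 nociceptor markers, genes of small pain-sensing neurons, were not lower in captured SH libraries (4133 to 4806 CPM) than in whole SH libraries (3990 to 4493), so the label of large neurons was not matched by an absence of small-neuron transcripts. In EE these markers summed to 3223 to 4045 CPM in captured libraries, below every captured SH library, while 16 large-neuron markers summed to 11949 to 15698 against 9432 to 11586. The sum of the large-neuron markers was lower in captured SH than in whole SH libraries (15681 to 16903 CPM). In whole EE libraries this sum (14590 to 15115) lay below every whole SH library. The median log2 CPM of the same 16 genes overlapped in each of these comparisons. It was 7.32 to 7.58 in captured SH, 7.57 to 7.87 in captured EE, 7.47 to 7.51 in whole SH and 7.44 to 7.61 in whole EE. Satellite glia markers, 14 genes, summed to 4148 to 4442 CPM in captured EE against 3466 to 3903 in captured SH. No gene of these lists was at 0 in every library. The part of these cell type differences in the captured results was not tested. In such bulk samples fewer cells of a type and less RNA per cell cannot be told apart.

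Crebbp lies on the minus strand of chromosome 16 (4081328 to 4213997, mm10) and Ep300 on the plus strand of chromosome 15 (81585351 to 81652077). Both code for very long transcripts, 10820 and 9566 bases for the longest annotated ones, longer than those of 98.1% and 97.0% of the genes tested in captured neurons. Ncoa2 (8171 bases), Ncoa3 (7531) and Ncoa1 (7329) are also long, against a median of 3331, while Kat2b (4653), Kat2a (3269), Kat5 (2245) and Hat1 (1899) are shorter. Exons of Kat5 touch those of Rnaseh2c, exons of Ncoa3 those of Sulf2 and exons of Ncoa1 an antisense gene, all on the opposite strand. Whether the counting used strand is not given in the sources used here, so the counts of these 3 genes are uncertain to that extent.

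The start regions of 4 members are shown because Crebbp, Ep300, Ncoa1 and Hat1 had among the largest housing differences of the 9 in captured neurons, in opposite directions. Each is the RefSeq promoter (GRCm38.p6), from 250 bases before to 50 bases after the start, written 5′ to 3′ on the gene's own strand. Capitals mark the GC box GGGCGG, the letters bound by SP-family factors. RefSeq promoters were found for 7 of the 9 members, with Ncoa2 and Ncoa3 not matched.
Crebbp, chr16:4213355-4213654, minus strand: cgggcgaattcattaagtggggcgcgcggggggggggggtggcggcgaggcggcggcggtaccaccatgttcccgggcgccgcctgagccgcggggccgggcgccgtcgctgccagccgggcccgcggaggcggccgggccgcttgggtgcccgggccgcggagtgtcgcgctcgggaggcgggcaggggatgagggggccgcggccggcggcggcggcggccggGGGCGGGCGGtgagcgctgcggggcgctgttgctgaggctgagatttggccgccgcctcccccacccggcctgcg
Ep300, chr15:81585964-81586263, plus strand: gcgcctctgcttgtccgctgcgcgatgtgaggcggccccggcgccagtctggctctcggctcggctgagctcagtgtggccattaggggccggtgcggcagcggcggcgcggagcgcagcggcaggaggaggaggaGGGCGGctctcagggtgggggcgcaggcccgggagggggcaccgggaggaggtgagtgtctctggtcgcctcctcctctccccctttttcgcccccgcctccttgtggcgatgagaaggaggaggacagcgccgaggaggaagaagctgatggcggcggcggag
Ncoa1, chr12:4477133-4477432, minus strand: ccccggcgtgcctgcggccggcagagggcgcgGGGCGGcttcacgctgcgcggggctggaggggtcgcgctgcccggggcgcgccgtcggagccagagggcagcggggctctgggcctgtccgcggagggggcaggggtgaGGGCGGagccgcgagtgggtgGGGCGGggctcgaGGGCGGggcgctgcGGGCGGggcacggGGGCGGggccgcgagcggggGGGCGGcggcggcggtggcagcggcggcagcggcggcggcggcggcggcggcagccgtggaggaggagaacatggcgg
Hat1, chr2:71389010-71389309, plus strand: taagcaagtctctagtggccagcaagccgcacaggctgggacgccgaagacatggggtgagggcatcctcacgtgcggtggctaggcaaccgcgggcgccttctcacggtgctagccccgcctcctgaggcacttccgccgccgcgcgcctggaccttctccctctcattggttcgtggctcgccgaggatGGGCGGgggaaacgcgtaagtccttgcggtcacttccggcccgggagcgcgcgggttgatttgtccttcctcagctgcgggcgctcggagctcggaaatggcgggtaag

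All 4 are rich in G and C. The Crebbp promoter is 82% G and C with 49 CpG dinucleotides, and Ncoa1's is 84.7% with 49. Ep300 reached 72.3% with 30 CpG, and Hat1 66.7% with 32. Read on this strand or the other, GGGCGG occurs in 35.7% of the 32851 RefSeq promoters and in all 4 shown, 7 times in Ncoa1 on the strand printed. The CREB-binding letters TGACGTCA, present on either strand in 1.79% of promoters, and the shorter TGACG, present in 20.8%, occur in none of the 4. The promoters of the other matched members differ. TGACG occurs in that of Kat2a (1 match), in a Kat2b promoter (1) and in each Kat5 promoter (1 and 2). GGGCGG occurs in a Kat5 promoter (3 matches) and not in those of Kat2a and Kat2b. These matches describe letters only.

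Levels were compared between genes per kilobase, as CPM divided by the gene length implied by the authors' FPKM values. In whole DRG the mean over all 6 libraries was highest for Kat5, the catalytic subunit of the NuA4 complex, at 28.8 CPM per kilobase (range 27.4 to 29.6). Kat2a (12.4; 11.5 to 13.7) and Ncoa1 (11.8; 10.8 to 13.4) followed and overlapped each other. Kat2b stood at 9.15 (8.41 to 9.73), Hat1, which acetylates newly made histone H4, at 6.59 (5.92 to 7.03), and Ncoa2 at 4.71 (4.39 to 5.17). Ep300 (3.98; 3.59 to 4.31) and Ncoa3 (3.77; 3.38 to 4.29) were not separable by their ranges. Crebbp was lowest, at 2.72 CPM per kilobase (2.54 to 2.94), with every library below every library of the other 8 genes.

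The order in captured neurons was different. Kat5 again stood above the rest at 27.1 CPM per kilobase (24.8 to 30.3). Below it Ncoa1 (13.8; 11.8 to 15.9), Crebbp (12.1; 9.64 to 14.7), Kat2b (12.04; 9.87 to 12.8), Ncoa2 (9.77; 8.80 to 10.8), Hat1 (8.15; 6.04 to 9.21), Ep300 (6.66; 5.31 to 7.84), Ncoa3 (6.63; 6.01 to 7.37) and Kat2a (6.41; 5.65 to 6.85) each overlapped the next in range. Crebbp was thus in the last place in whole DRG and in the third in captured neurons, and Kat2a in the second and the last. Lengths taken from the longest GENCODE transcript in place of the implied length kept Kat5 first in both preparations and Crebbp last in whole DRG. They placed Ncoa2 second (17.2 CPM per kilobase) and Crebbp sixth (8.41) in captured neurons, so the middle ranks there depend on the transcript assumed.

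**Figure D1:**
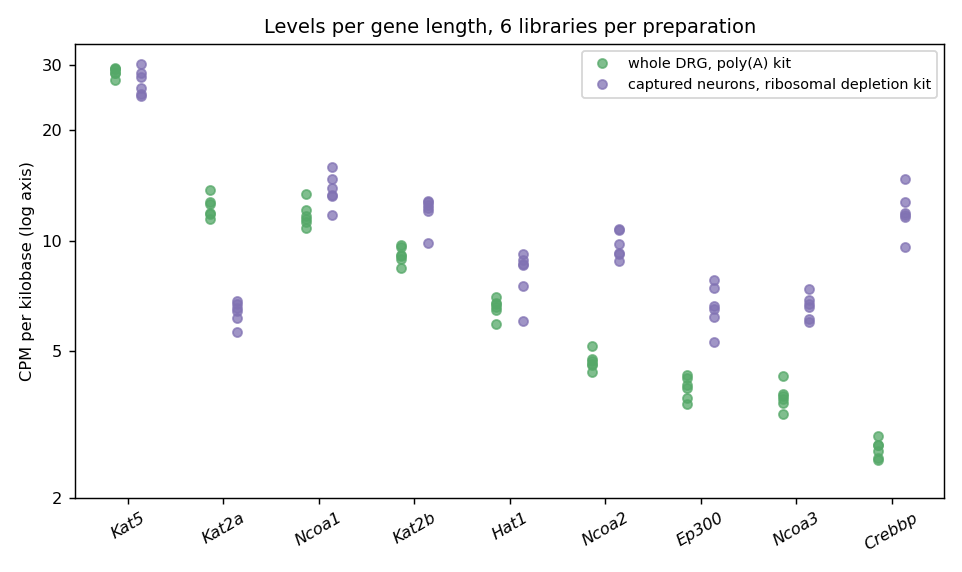
Level of each of the 9 acetyltransferase genes in CPM per kilobase on a log axis, 1 point per library, in whole DRG and captured neurons. Kat5 is highest in both preparations, at 28.8 and 27.1 on average, and Crebbp is lowest in whole DRG at 2.72.

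Scaled by library size alone, Crebbp measured 20.4 ± 1.09 CPM in whole SH libraries and 98.2 ± 11.8 in captured SH libraries (SD, n = 3 each), a ratio of 4.81, and the ratio in EE was 4.06. Ep300, its paralog, had ratios of only 1.85 in SH and 1.498 in EE. Ncoa2 (2.23 and 1.91) and Ncoa3 (1.72 and 1.80) were nearer to Ep300 than to Crebbp. Kat5 differed little (0.931 and 0.952), and Kat2a was lower in captured neurons (0.499 and 0.537). The preparations differ in capture, library kit and RNA quality as well as in cells. These sources cannot be told apart, the tables were made separately, and no test was made between them.

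The balance of the 2 paralogs was also different. Crebbp had 0.592, 0.563 and 0.606 reads per Ep300 read in whole SH replicates 1, 2 and 3, and 0.586, 0.579 and 0.589 in whole EE. Captured neurons gave 1.49, 1.61 and 1.47 in SH and 1.56, 1.62 and 1.57 in EE. Within each preparation the housing groups overlapped, with means of 0.587 and 0.585 in whole DRG and 1.52 and 1.58 in captured neurons.

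In whole DRG no housing difference was detected in any of the 9 genes. With edgeR's quasi-likelihood test and Benjamini-Hochberg adjustment, 0 of 9 passed, beside 0.00631% of the 15845 genes tested, and 0 of 9 had an unadjusted p under 0.05, beside 2.90% of all genes (1.34% higher and 1.55% lower in EE). DESeq2 and limma-voom also passed 0 of 9. With the replicate number as a block 32 genes passed in whole DRG in place of 1, and again 0 of 9 members. The median log2 fold change of EE against SH over the 9 was 0.030, with 7 of 9 positive, against 0.0028 over all genes.

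Crebbp measured 21.1, 20.9 and 19.02 CPM in whole SH replicates 1, 2 and 3 and 22.7, 20.2 and 19.4 in EE, here and below after TMM scaling. The SH values lie within the EE range or next to it, with a log2 fold change of 0.026 ± 0.093 (SE) and a 95% interval of 0.887 to 1.17-fold. Ep300 measured 35.7, 37.0 and 31.4 CPM in SH and 38.7, 34.8 and 32.9 in EE. The groups again overlapped, with a log2 fold change of 0.030 ± 0.087 and an interval of 0.898 to 1.16-fold. These intervals bound how large a housing difference in CBP or p300 mRNA of the whole ganglion could be.

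The GCN5 and PCAF pair were the members whose groups did not overlap in whole DRG, in opposite directions. Kat2a measured 44.3, 44.4 and 47.7 CPM in SH and 42.3, 40.0 and 41.7 in EE, a log2 fold change of -0.14 ± 0.071 (unadjusted p = 0.0715). Kat2b measured 44.7, 40.9 and 43.5 CPM in SH and 45.8, 46.7 and 47.6 in EE, a log2 fold change of 0.12 ± 0.070 (unadjusted p = 0.114). Groups without overlap occurred for 2 of the 9 members and for 7.48% of all genes, 4.29% with EE below and 3.19% with EE above. The adjusted p by edgeR's quasi-likelihood test with Benjamini-Hochberg adjustment was 0.9996 for both.

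Of the p160 coactivators, Ncoa1 and Ncoa2 spread more in EE than in SH in whole DRG (SD 11.2 against 3.16 and 6.66 against 1.27 CPM), and Ncoa3 less (1.95 against 2.58). Ncoa1 measured 86.2, 82.4 and 88.6 CPM in SH and 101.0, 83.9 and 79.8 in EE, the first EE library being the highest of the 6. Ncoa2 had the same layout, with 67.0, 68.6 and 66.0 in SH and 76.1, 63.0 and 67.8 in EE. Both had log2 fold changes near 0, at 0.040 ± 0.085 and 0.036 ± 0.077. Ncoa3 measured 28.9, 33.9 and 30.2 CPM in SH and 30.7, 29.2 and 26.8 in EE, with overlap and a log2 fold change of -0.098 ± 0.086. Kat5 ranged from 55.1 to 59.3 CPM and Hat1 from 17.1 to 20.3 over the 6 libraries, with log2 fold changes of 0.037 ± 0.067 and 0.024 ± 0.094.

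**Figure D2:**
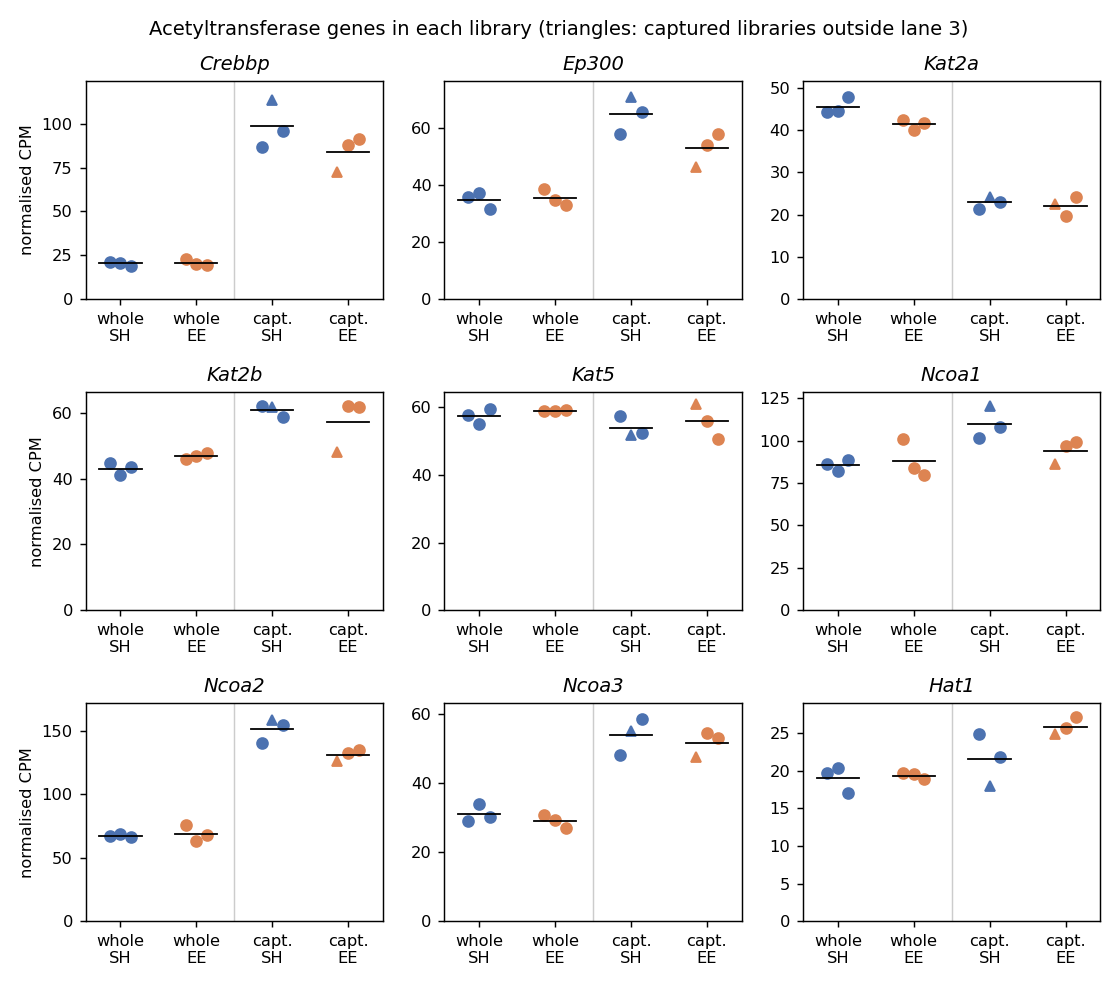
CPM after TMM scaling of each member in each library, 1 panel per gene, with SH and EE of whole DRG and captured neurons side by side and a bar for each group's mean. Kat2a and Kat2b separate by housing in whole DRG, Ncoa1 and Ncoa2 in captured neurons.

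In captured neurons the long acetyltransferase genes measured lower in EE and Hat1 higher, but none of the 9 passed the test. Under edgeR's quasi-likelihood test with Benjamini-Hochberg adjustment 0 of 9 passed, beside 0.0185% of the 16186 genes tested (3 genes). At an unadjusted p under 0.05, 3 of 9 were lower (Ep300, Ncoa1, Ncoa2), beside 8.62% of all genes, and 1 was higher (Hat1), beside 7.30%. DESeq2 and limma-voom gave 0 of 9 adjusted and 4 of 9 unadjusted each. Over all genes 7.37% were lower and 6.46% higher unadjusted with DESeq2, and 8.56% and 6.99% with limma-voom. The median log2 fold change over the 9 was -0.089, with 7 of 9 negative, against -0.00059 over all genes.

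Crebbp measured 86.6, 113.7 and 96.1 CPM in captured SH replicates 1, 2 and 3 and 72.4, 87.9 and 91.1 in captured EE. SH replicate 2 was the highest and EE replicate 1 the lowest, and the first SH library lay inside the EE range. The means were 98.8 ± 13.7 and 83.8 ± 10.0 CPM (SD, n = 3), a log2 fold change of -0.24 ± 0.11 with a 95% interval of -0.49 to 0.013 and an adjusted p of 0.337 by edgeR's quasi-likelihood test with Benjamini-Hochberg adjustment.

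Ep300 measured 58.0, 70.8 and 65.4 CPM in captured SH and 46.4, 54.1 and 58.0 in EE. The highest EE library exceeded the lowest SH library by less than the last digit given. The means were 64.7 ± 6.42 and 52.8 ± 5.89 CPM, a log2 fold change of -0.29 ± 0.10 with a 95% interval of -0.52 to -0.067. The unadjusted p was 0.0161, and the adjusted p 0.208 by edgeR's quasi-likelihood test with Benjamini-Hochberg adjustment.

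The p160 coactivators differed among themselves. Ncoa1 measured 101.5, 120.4 and 108.1 CPM in captured SH and 86.3, 96.7 and 98.9 in EE. Ncoa2 measured 140.2, 158.7 and 154.9 in SH and 126.2, 132.6 and 134.6 in EE. Every EE library was below every SH library for both genes. Groups with EE below and no overlap made up 2 of the 9 members and 10.9% of all genes, and groups with EE above 0 of the 9 and 10.2%. The log2 fold change was -0.23 ± 0.084 for Ncoa1 (unadjusted p = 0.0209, adjusted p = 0.227) and -0.21 ± 0.069 for Ncoa2 (0.0131 and 0.196), by edgeR's quasi-likelihood test with Benjamini-Hochberg adjustment. Ncoa3, the third of the family, measured 48.1, 54.9 and 58.4 CPM in SH and 47.4, 54.3 and 53.1 in EE. Its groups overlapped, with a log2 fold change of -0.062 ± 0.091.

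Hat1 was the member with the largest positive difference. It measured 24.9, 18.0 and 21.8 CPM in captured SH and 24.8, 25.6 and 27.0 in EE. SH replicate 2 was the lowest library and SH replicate 1 lay just above the lowest EE library. The means were 21.5 ± 3.44 and 25.8 ± 1.14 CPM, a log2 fold change of 0.26 ± 0.12 with an interval of 0.0024 to 0.52 and an adjusted p of 0.311 by edgeR's quasi-likelihood test with Benjamini-Hochberg adjustment.

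Kat2a, Kat2b and Kat5 overlapped between housing groups in captured neurons. Kat2b measured 61.9, 61.8 and 58.7 CPM in SH and 48.0, 62.0 and 61.8 in EE, so its log2 fold change of -0.089 rested on EE replicate 1. Without that library it was 0.025. Kat2a ranged from 19.6 to 24.2 CPM and Kat5 from 50.6 to 60.8, with log2 fold changes of -0.047 and 0.053. The whole-DRG separation of Kat2a and Kat2b was therefore not seen in the captured libraries.

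**Figure D3:**
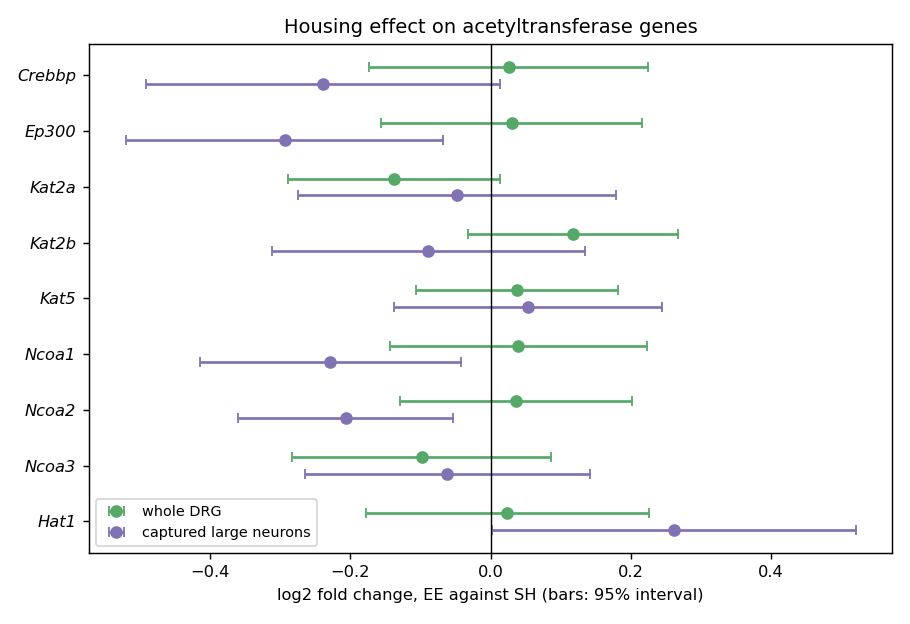
Log2 fold change of EE against SH with its 95% interval for each member in whole DRG and captured neurons. In whole DRG every interval includes 0; in captured neurons those of Ep300, Ncoa1 and Ncoa2 lie below 0 and that of Hat1 above it, while no adjusted p reached 0.05.

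The captured differences moved with library features. Per the labels, SH replicate 2 was sequenced in lane 2 and EE replicate 1 in lane 1, and the other 4 captured libraries shared lane 3. Captured SH replicate 2 also stood apart on 10 blood and muscle markers, which summed to 471 CPM there and to 18.1 to 33.1 in the other 5 captured libraries, and the part of this in the results was not tested. Crebbp deviated from its 6-library mean by 0.33 (log2) in SH replicate 2 and by -0.32 in EE replicate 1, Ep300 by 0.28 and -0.33, and Ncoa1 by 0.25 and -0.23. The 1436 tested genes with transcripts of at least 7000 bases had median deviations of 0.098 and -0.11 in those libraries and between -0.022 and 0.040 in the other 4. Over the long genes the median log2 fold change of EE against SH was -0.078, and 67.1% were negative. For the 3535 genes under 2000 bases the median was 0.079. Of the long members, Crebbp had a log2 fold change of -0.24, Ep300 -0.29, Ncoa1 -0.23, Ncoa2 -0.21 and Ncoa3 -0.062, and the short Hat1 had 0.26. These have the signs of the medians of their length classes, and all but Ncoa3 were larger in size than those medians. In whole DRG the median deviation of the long genes was 0.11 in EE replicate 1 and -0.059 to 0.0022 in the other libraries. Ncoa1 (0.22), Ncoa2 (0.16), Crebbp (0.14) and Ep300 (0.14) were each highest in that library, and Ncoa3 was not. The cause of the members' differences was not tested.

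**Figure D4:**
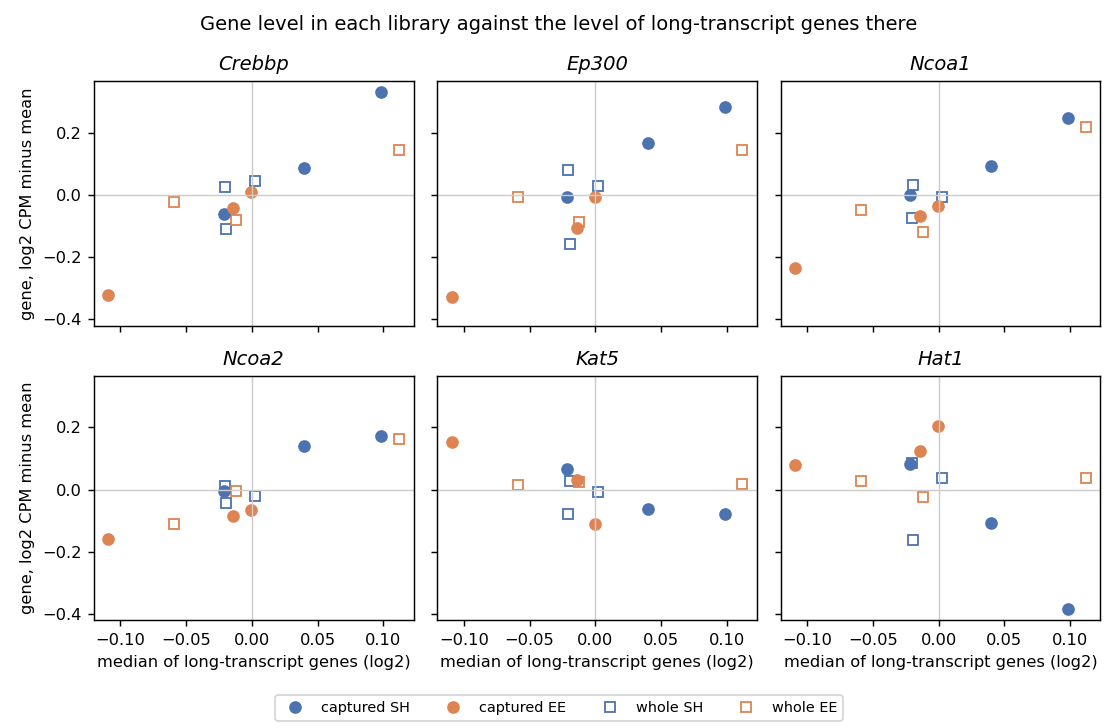
Deviation (log2) of Crebbp, Ep300, Ncoa1, Ncoa2, Kat5 and Hat1 from their preparation means in each library. It is drawn against the median deviation of genes with transcripts of at least 7000 bases. Filled circles are captured libraries and open squares are whole DRG. Among captured libraries, SH replicate 2 (0.098 for the long genes) and EE replicate 1 (-0.11) are the extremes for Crebbp, Ep300 and Ncoa1 as well.

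Within lane 3, with 2 SH and 2 EE libraries, the log2 fold change was -0.029 for Crebbp, -0.14 for Ep300, -0.099 for Ncoa1, -0.14 for Ncoa2 and 0.18 for Hat1, and 0 of 9 members had an unadjusted p under 0.05. Offsets for transcript length and GC content over all 6 libraries gave -0.13, -0.20, -0.16, -0.13 and 0.21 in the same order, with 2 of 9 under 0.05. Of all genes, 8.29% were lower and 7.99% higher at that level in lane 3, and 7.19% and 7.99% with the offsets. For the same 5 genes, leaving out EE replicate 1 gave -0.14, -0.21, -0.17, -0.18 and 0.29, and leaving out SH replicate 2 gave -0.13, -0.22, -0.16, -0.17 and 0.15. The signs of these 5 genes held in each of these settings, while Crebbp in lane 3 came near 0. The smallest adjusted p of any member under any alternative was 0.0755, for Ep300 with no filter on low counts, by edgeR's quasi-likelihood test with Benjamini-Hochberg adjustment.

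**Figure D5:**
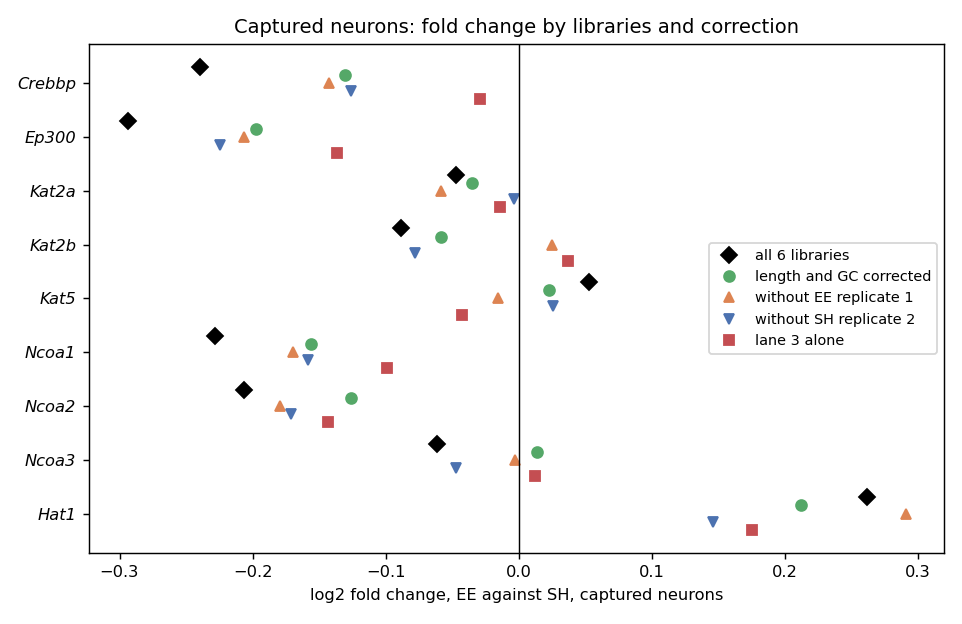
Log2 fold change of EE against SH in captured neurons for Crebbp, Ep300, Ncoa1, Ncoa2 and Hat1 under each alternative analysis. Crebbp moves from -0.24 to -0.029 when only the lane 3 libraries are used, and Ep300 from -0.29 to -0.14.

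The housing effect in captured neurons was tested against that in whole DRG in a model of all 12 libraries. Under edgeR's quasi-likelihood test with Benjamini-Hochberg adjustment 0 of 9 members passed, beside 0% of 17412 genes. At an unadjusted p under 0.05, 3 of 9 were more negative in captured neurons, beside 6.39% of all genes, and 0 of 9 more positive, beside 5.29%. They were Ep300 (difference -0.34 on the log2 scale, adjusted p = 0.386), Ncoa1 (-0.28, 0.412) and Ncoa2 (-0.25, 0.372). Crebbp differed by -0.28 (0.524) and Hat1 by 0.23 (0.602). With length and GC offsets, or without captured EE replicate 1, 0 of 9 had an unadjusted p under 0.05. Over all genes 5.20% were more negative and 6.47% more positive with the offsets, and 7.70% and 6.63% without that library.

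Crebbp and Ep300 varied together across libraries. After centring within each preparation, their log2 CPM correlated at r = 0.96 over the 12 libraries. The value was 0.96 within the 6 captured libraries and 0.96 within the 6 whole-DRG libraries. Among 9493 genes, those most like Crebbp were Mll1 (0.97), a histone H3 methyltransferase, Wdr26 (0.97) and Ep300. Those most like Ep300 were Jmy (0.98), a p300-binding cofactor, Mll1 (0.97) and Crebbp. All have long transcripts, 16470 bases for Mll1, 8776 for Jmy and 7068 for Wdr26. The part of the length-related shifts given above in these correlations was not tested. Crebbp correlated with Ncoa1 at 0.88 and Ncoa2 at 0.83, and with Kat5 at -0.73. With Hat1 the sign differed by preparation, being -0.75 over the captured and 0.70 over the whole-DRG libraries. These correlations are descriptions over few libraries.

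Genes that work with these enzymes were read from 9 further lists: other acetyltransferases, CBP and p300 partners, the SAGA and ATAC, TIP60 and MOZ, HBO1 and MOF complexes, HAT1 chaperones, nuclear receptor partners of the p160 family, acetyl-CoA supply and bromodomain readers. In whole DRG 0 of the 194 tested passed the adjusted test. At an unadjusted p under 0.05, 0 were higher, beside 1.34% of all genes. The number lower was 2 (1.03%), a smaller share than the 1.55% of all genes. These 2 genes code for CREB coactivators. Crtc3 had 22.0 ± 0.543 CPM in SH and 18.9 ± 0.601 in EE (log2 fold change -0.22), and Crtc1 had 42.9 ± 2.06 and 36.8 ± 4.15 (-0.22), each with an adjusted p of 0.9996 by edgeR's quasi-likelihood test with Benjamini-Hochberg adjustment.

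In captured neurons 0 of 196 passed by the same test. At an unadjusted p under 0.05, 30 (15.3%) were lower, beside 8.62% of all genes, and 14 (7.14%) higher, beside 7.30%. With length and GC offsets 10.7% were lower beside 7.19%, and in lane 3 alone 9.69% beside 8.29%. DESeq2 passed 6 lower and 1 higher of these 196 genes, a share near that of all genes (522 of the 16186 fitted). The lower ones included Nfatc3 (adjusted p = 0.00919), Atxn7 (0.0157), Smad4 (0.0440) and Ncoa6 (0.0477), and the higher one was Nr1d1 (0.0434). With no filter edgeR passed 6 lower and 3 higher of 198, beside 902 of all genes with any read.

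Among 32 tested partners of CBP and p300, 6 were lower and 1 higher at an unadjusted p under 0.05. Together these made 21.9%, beside 15.9% of all genes, and the list's median log2 fold change was -0.14. In lane 3 alone 4 were lower and 1 higher, and leaving out SH replicate 2 gave 3 and 1. Over all genes 8.29% were lower and 7.99% higher in lane 3, and 4.83% and 4.50% without SH replicate 2. Nfatc3, a calcium-regulated transcription factor, had 46.8 ± 5.51 CPM in SH and 35.0 ± 1.42 in EE (log2 fold change -0.42, adjusted p = 0.123). Smad4, which carries TGF-beta signals to the nucleus, had 65.2 ± 2.28 and 53.9 ± 1.61 (-0.28, 0.129). The neuronal factors Mef2a (-0.21) and Mef2d (-0.26) were the other named partners. All EE libraries lay below all SH libraries for Nfatc3, Smad4, Mef2a and Mef2d. That held for 8 of the 32 partners, beside 10.9% of all genes, and the reverse for 1, beside 10.2%. Adjusted p here and in the next lists are from edgeR's quasi-likelihood test with Benjamini-Hochberg adjustment.

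Complexes that hold the members were read next. Of 28 SAGA and ATAC subunits, which hold Kat2a or Kat2b, 5 were lower and 0 higher at an unadjusted p under 0.05. That was 17.9%, beside 15.9% of all genes in either direction and 8.62% lower (list median -0.054). The number lower was 1 in lane 3 alone and 2 without SH replicate 2, as it was without EE replicate 1. Over all genes 8.29%, 4.83% and 9.62% were lower in these settings, in that order. Atxn7, a subunit of the deubiquitinase module, had 37.0 ± 2.19 CPM in SH and 28.1 ± 2.18 in EE (-0.40, adjusted p = 0.120). Of 18 TIP60 complex subunits, the partners of Kat5, 2 were lower (Mbtd1 -0.33, Epc2 -0.19) and 1 higher (Mrgbp 0.29). Together these made 16.7%, near the share of all genes. Trrap, the large scaffold shared by both kinds of complex, had 165 ± 14.3 and 147 ± 6.15 CPM (-0.16). Of 7 chaperones that hand histones to or from Hat1, Nap1l1 was lower (-0.18) and Nasp higher (0.21) at an unadjusted p under 0.05, without passing adjustment. Together these made 28.6%, beside 15.9% of all genes.

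Bromodomain proteins, which read acetylated lysines, had a median of -0.12 over 28 genes, with 5 lower and 1 higher at an unadjusted p under 0.05. Together these made 21.4%, beside 15.9% of all genes. With length and GC offsets 1 was lower and 1 higher (median -0.060), in lane 3 alone likewise 1 and 1 (-0.049). Leaving out SH replicate 2 gave 1 lower and 0 higher (-0.074). Over all genes 7.19%, 8.29% and 4.83% were lower in these settings, in that order. Acetyl-CoA supply genes had a median of 0.11 over 14 genes with 4 higher and 0 lower (28.6%, beside 15.9%). These counts were 2 and 2 in lane 3 alone, 3 and 2 without EE replicate 1, and 0 and 0 without SH replicate 2 or without SH replicate 3. Over all genes 7.99%, 8.64%, 4.50% and 5.92% were higher in these settings, in that order. Dlat, a subunit of pyruvate dehydrogenase, differed by 0.14 and Mpc2, of the mitochondrial pyruvate carrier, by 0.24. Median log2 fold changes of other acetyltransferases (17 genes, -0.026) and of MOZ, HBO1 and MOF subunits (19 genes, -0.039) were nearer to 0. In each, 3 were lower and 1 higher (23.5% and 21.1%, beside 15.9% of all genes).

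The 35 nuclear receptor partners of the p160 family split, with 4 higher and 5 lower and a median of 0.014. Together these made 25.7% at an unadjusted p under 0.05, beside 15.9% of all genes. Ncoa6, a coactivator, had 45.2 ± 6.48 CPM in SH and 35.2 ± 1.76 in EE (-0.36), and Nr3c1, the glucocorticoid receptor, 83.6 ± 1.22 and 72.7 ± 3.30 (-0.20). Esrra, an estrogen-related receptor, differed by 0.48 (adjusted p = 0.190). Its relative Esrrg and the shared coactivator Ppargc1a, named after their values were seen, had log2 fold changes of 0.64 and 0.20 over all 6 libraries. In lane 3 alone these were 0.74 (adjusted p = 0.00104) and 0.30 (0.0426), by edgeR's quasi-likelihood test with Benjamini-Hochberg adjustment. Without EE replicate 1 they were 0.91 (0.0145) and 0.37 (0.0467). Of all genes tested, 658 passed in lane 3, 602 without EE replicate 1 and, over all 6 libraries, 902 with no filter. Over all 6 libraries Esrrg had an adjusted p of 0.257 with the filter on low counts, 4.25e-09 with no filter and 0.361 by DESeq2. Ppargc1a had 0.526, 0.368 and 0.454 in the same settings.

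Of the opposing enzymes, 18 histone deacetylase genes, 0 passed edgeR's quasi-likelihood test with Benjamini-Hochberg adjustment, with 2 higher and 2 lower at an unadjusted p under 0.05 in captured neurons. Together these made 22.2%, beside 15.9% of all genes. Hdac9 had 85.2 ± 12.5 CPM in SH and 65.7 ± 2.85 in EE (-0.37, adjusted p = 0.143). Its adjusted p was 0.0223 by DESeq2, 0.00399 with no filter, 0.0419 in lane 3 alone and 0.0405 there with offsets, with the same sign in each. Of all genes tested, 522, 902, 658 and 766 passed in these settings, in that order. Hdac8 had 6.10 ± 0.493 and 8.27 ± 0.655 (0.44, 0.189).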

How the data were processed

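RNA sequencing gave 12 libraries. The deposited tables hold whole-number read counts per gene name, 1 table per preparation, and the authors also deposited FPKM values for whole DRG, used here only for the gene length they imply. Per the submitters' processing notes, the build was mm10 and the tools included HTSeq 0.6.0, TopHat2 2.0.12 and Bowtie2 2.2.3. Their roles and settings are not given in the sources used here. Per the labels' protocols, whole DRG (RNA integrity number above 7.5) used a TruSeq mRNA kit with 100-cycle reads, and captured neurons (6 to 7) a RiboZero ScriptSeq kit with reads of 125 bases. The 5 summary rows that name no gene were left out. Between 47.0 and 47.6% of whole-DRG reads lay outside features, and between 28.0 and 36.3% of captured reads. The word Sham in whole-DRG column names is unexplained, and columns were matched by housing and number.

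Counts were fitted with edgeR 4.0.16 in R 4.3.3 (filterByExpr, TMM, quasi-likelihood test, Benjamini-Hochberg over all genes tested, threshold 0.05), each preparation alone, and over all 12 libraries for the difference. Error bars of log2 fold changes are standard errors, and those of CPM are SD. The scripts were tested on simulated data. Alternatives used DESeq2 1.42.0, limma 3.58.1 (voom), other scalings and filters, a replicate block, leaving out each library, and offsets for transcript length and GC content (GENCODE vM21, splines with 4 degrees of freedom). Lane 3 alone was combined with those offsets, list counts were repeated under the alternatives, and levels were recomputed with the longest transcript, all chosen after seeing the data. Positions are from GENCODE vM21.

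The 9 genes, the other lists and the alternatives were chosen with earlier results of these data known. Named beside the members were up to 4 genes per list with the smallest unadjusted p in each comparison, at most 2 deacetylases, and the 3 genes most correlated with Crebbp and with Ep300 (prior count 2, average log2 CPM of at least 3); not all are mentioned. In whole DRG, per the labels, SH and EE libraries of 1 number ran in the same lane (4, 5 or 6), so the numbers pair them. The values given are from the fit without this pairing, and the replicate block was an alternative. Same-numbered libraries deviated together at r = 0.33, 0.15 and 0.10. Of the differently numbered pairs, SH replicate 3 with EE replicate 2 gave 0.19 and the others -0.33 to -0.023. In captured libraries the numbers do not follow the lanes, so they were not treated as pairs, and the correlations were 0.089, -0.0088 and 0.12.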

Additional observations from a re-analysis of the deposited data

How the results depend on the processing

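No member passed the adjusted threshold in any of the 54 settings of the 3 comparisons, and 428 of 459 alternative fold changes of members kept their sign. Counts of all genes past the threshold did move. In whole DRG 1 gene passed, against 0 with library size alone, 48 with no filter, 32 with the replicate block, 29 with the block and length and GC offsets, and 0 to 2 leaving out a library. In captured neurons 3 passed, against 522 with DESeq2, 902 with no filter, 1 at an average log2 CPM of at least 3, 658 in lane 3, 766 in lane 3 with offsets, 0 with the replicate block, and 0 to 602 leaving out a library (602 without EE replicate 1). For the difference 0 passed, against 145 with DESeq2, 457 with no filter, 1 at an average log2 CPM of at least 3, 1 with offsets, and 0 to 233 leaving out a library (233 without captured EE replicate 1). The replicate block changed no member's call. The cause of these shifts was not tested. Small log2 fold changes reversed in sign. In whole DRG Crebbp was -0.00084 with offsets, and leaving out a library gave -0.040 to 0.071 for Crebbp, -0.036 to 0.080 for Ep300, -0.047 to 0.072 for Hat1, -0.066 to 0.11 for Ncoa1 and -0.039 to 0.097 for Ncoa2. In captured neurons Kat2b was 0.037 in lane 3 and 0.047 there with offsets, Kat5 -0.043 and -0.048, Ncoa3 0.012 and 0.031, and Kat2a 0.0049 in lane 3 with offsets. Ncoa3 was 0.013 with offsets alone. Leaving out a library gave -0.12 to 0.039 for Kat2a, -0.15 to 0.025 for Kat2b, -0.016 to 0.12 for Kat5 and -0.14 to 0.0011 for Ncoa3. For the difference Kat5 was -0.0049 with DESeq2 size factors, -0.0041 with DESeq2 and -0.033 with offsets, and leaving out a library gave -0.061 to 0.062 for Kat5 and -0.050 to 0.097 for Ncoa3. Precision is limited by the 3 libraries a group, whose common biological coefficient of variation was 0.0741 in whole DRG and 0.121 in captured neurons.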
